A study of Mus musculus with 19 samples.

Results

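The BAF complex is the mammalian SWI/SNF chromatin remodeller, and 10 genes for the subunits and alternative catalytic and scaffold proteins at the centre of its exchange between progenitors and neurons were followed here. They are Actl6a, Actl6b, Phf10, Dpf1, Dpf2, Dpf3, Ss18, Smarca2, Smarca4 and Smarcc2, found by gene symbol in the platform annotation, among 18193 genes that the array measured with a symbol of their own. Their 20 probe sets were reduced to the brightest of each gene, by the mean over all 19 arrays, and all 10 genes were measured. Values are log2 expression, so a difference of 1 is a doubling, and every difference below is given on that scale unless a fold is named.

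The RNA came from C57BL/6 mice, in 9 groups of cortical projection neurons. Corticotectal projection neurons (CTPN, which send axons to the tectum) were collected at postnatal day 14 (P14). Corticospinal motor neurons (CSMN, which reach the spinal cord) and callosal projection neurons (CPN, which cross to the other hemisphere) were each collected at embryonic day 18 (E18), P3, P6 and P14. CSMN at P3 had 3 arrays and every other group had 2, each from its own collection of cells per the series' design text. All cells were labelled from their axons with green fluorescent microspheres, sorted and amplified from little RNA. The labels tie CSMN and CPN to sensorimotor cortex and CTPN to visual cortex, so that type and area cannot be told apart wherever CTPN were compared. No transgene, treatment or batch is given in the labels.

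In BAF complexes an ATPase subunit, BRG1 (encoded by Smarca4) or BRM (Smarca2), slides or ejects nucleosomes, and scaffold subunits such as BAF170 (Smarcc2) hold the complex together. As neural progenitors leave the cell cycle, the actin-related subunit BAF53a (Actl6a) is replaced by BAF53b (Actl6b). The PHD finger subunits BAF45a (Phf10) and BAF45d (Dpf2) give way to BAF45b (Dpf1) and BAF45c (Dpf3) at the same transition, and SS18 gives way to its relative CREST (Ss18l1). The neuronal form is known for its part in dendrite growth and activity-dependent transcription.

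The cell labels were checked against Fezf2, a transcription factor of subcerebral projection neurons. It measured 11.30 and 11.57 in CTPN, between 10.12 and 10.95 in CSMN and between 8.0 and 9.41 in CPN, so both subcerebral types lay above every CPN array. Cux2, a transcription factor of upper-layer neurons, measured 6.87 and 8.22 in CTPN and 5.91 to 9.23 in CSMN, against 8.44 to 11.13 in CPN, with some overlap. The arrays had medians of 6.42 to 6.62. Arrays of the same group correlated at Pearson's r of 0.907 to 0.996, and the lowest value belonged to CSMN at P14, whose replicate 2 also held the lowest value of all 19 arrays for 5 of the 10 members.

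The members that passed the test between stages were all lower at the later stage. Among the 4 genes of the progenitor form, Actl6a was lower at P14 than at E18 in CSMN, and Actl6a and Ss18 were lower in CPN. Among the 3 genes of the neuronal form, Actl6b, Dpf1 and Dpf3, none passed in any of 16 comparisons, though 5 of their 48 results did so under at least 1 other setting. Those of the 5 that compared stages were Actl6b in CSMN and Dpf1 in both types, at P14 against P3, and all were lower at P14. Among the 3 genes that both forms use, Smarcc2 was lower at P14 than at E18 in CSMN. A difference between these roles was not tested. At P14 against E18, 2 of 10 members passed in each type, with 15.1% of all genes past the test in CSMN and 19.2% in CPN.

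**Figure D1:**
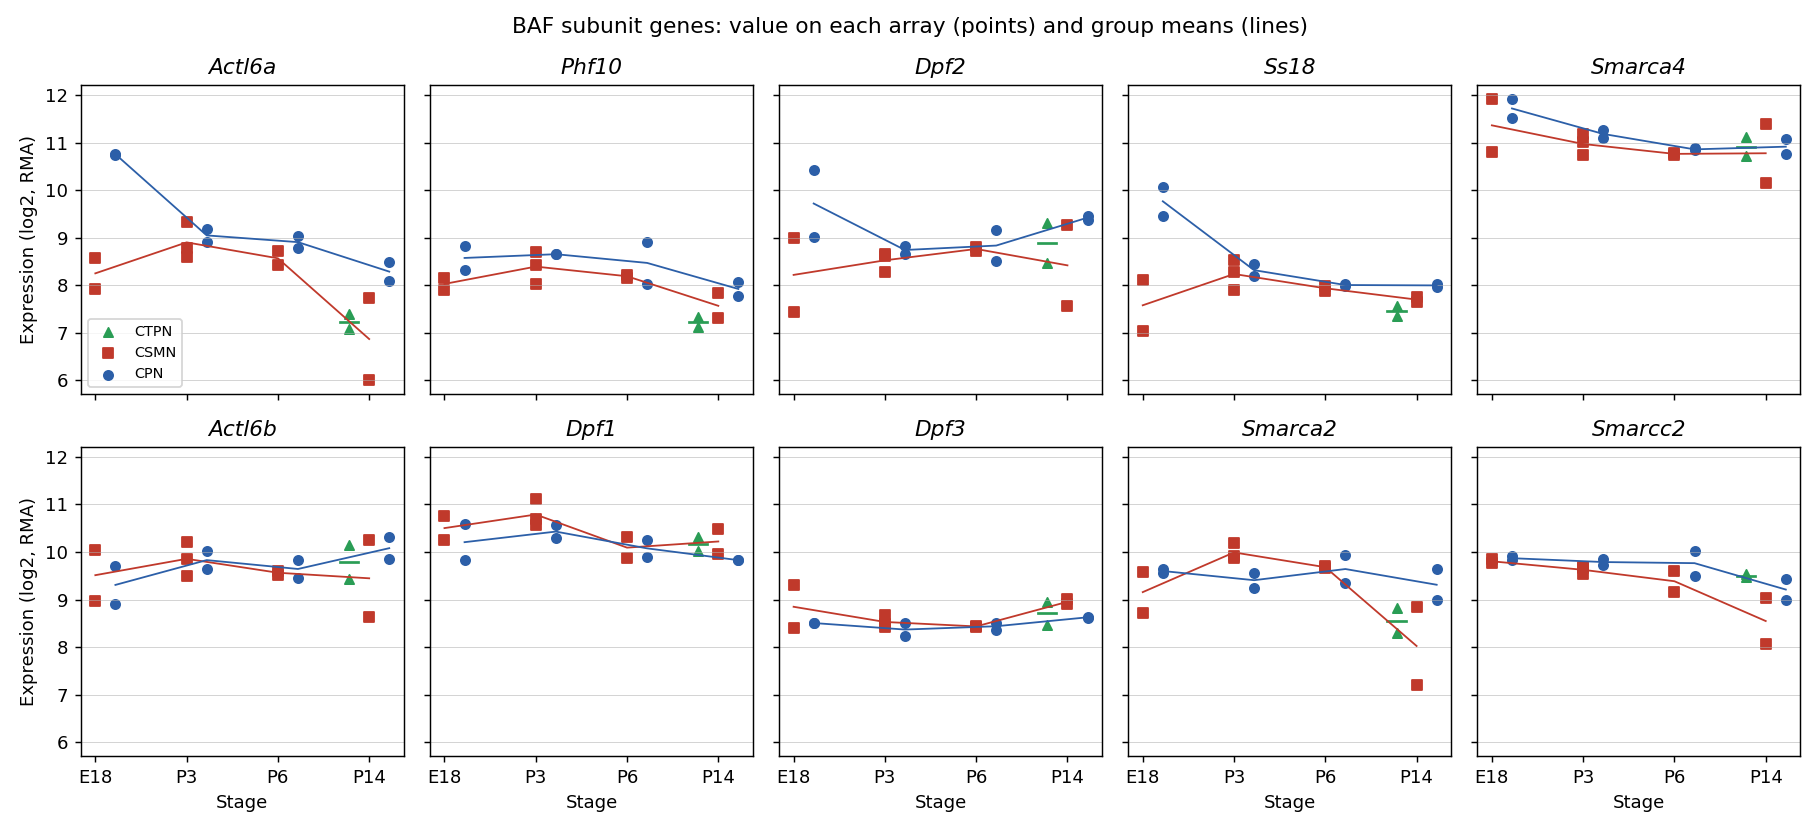
Log2 expression of each of the 10 BAF genes on every array, with stage on the horizontal axis and cell type by colour and shape; points are arrays, and lines (a short bar for CTPN) join or mark group means. Both CPN arrays at E18 stand above all others for Actl6a (10.75 and 10.76) and Ss18 (9.46 and 10.07), while those of Actl6b (9.71 and 8.91) lie among the other arrays.

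The promoters of the actin-related pair are shown because Actl6a had the largest differences of the 10 members and Actl6b is its partner. Each runs from 250 bases before to 50 bases after the RefSeq gene start, on GRCm38.p6, and both genes lie on the plus strand. Capitals mark matches to the GC box (GGGCGG) and the CCAAT box (CCAAT) on either strand.
Actl6a, chr3:32708296-32708595: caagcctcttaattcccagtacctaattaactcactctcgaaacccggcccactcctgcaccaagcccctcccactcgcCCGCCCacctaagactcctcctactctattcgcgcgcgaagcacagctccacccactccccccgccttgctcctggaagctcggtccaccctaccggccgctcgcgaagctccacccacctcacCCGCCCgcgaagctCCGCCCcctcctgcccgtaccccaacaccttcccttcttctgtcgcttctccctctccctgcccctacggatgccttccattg
Actl6b, chr5:137553296-137553595: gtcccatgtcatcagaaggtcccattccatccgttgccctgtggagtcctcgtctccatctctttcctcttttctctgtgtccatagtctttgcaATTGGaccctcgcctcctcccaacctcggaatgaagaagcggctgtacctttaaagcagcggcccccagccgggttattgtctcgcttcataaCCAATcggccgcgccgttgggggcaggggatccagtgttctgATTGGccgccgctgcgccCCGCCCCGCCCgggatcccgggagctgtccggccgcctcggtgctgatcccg
The Actl6a window held 21 CpG dinucleotides and 3 GC boxes, and no CCAAT box. The Actl6b window held 23 CpG, 2 overlapping GC boxes at the gene start and 3 CCAAT boxes. Of 32851 mouse promoters of 300 bases, with a median of 7 CpG, 75.2% held fewer CpG than Actl6a and 78.5% held fewer than Actl6b. A GC box was present in 35.7% and a CCAAT box in 37.4% of them. A window was found for 9 of the 10 members, and none of the 9 held the core of the RE1 element that REST binds, the E2F site TTTNNCGC or the CRE TGACGTCA, which 0.0365%, 5.17% and 1.79% of all windows held. An E-box (CANNTG), present in 72.3% of windows, overlapped the first CCAAT box of Actl6b. These are matches of letters, not measured binding sites.

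Actl6a, the actin-related subunit of progenitor complexes, had the largest differences of the 10 members, between P14 and E18 in CPN and between the types at E18. In CSMN it measured 7.93 and 8.58 at E18, 9.33, 8.79 and 8.59 at P3, 8.71 and 8.42 at P6, then 7.74 and 6.00 at P14. Its CSMN levels were thus highest at P3, with all 3 arrays above both E18 arrays, and lowest at P14, with both arrays below every other CSMN array. P14 was lower than E18, with a difference of -1.38 ± 0.42 (model SE here and throughout, n = 2 arrays each, limma adjusted p = 0.0392, with 5.85% of all genes lower). That call was lost in 9 of the 19 settings that left out 1 array (adjusted p up to 0.251). Among these, the difference was -0.51 without P14 replicate 2 and -1.06 without E18 replicate 2. Against P3, P14 was lower, with a difference of -2.03 ± 0.38 (limma, adjusted p = 0.00338, with 8.16% of all genes lower and 12.6% in either direction), and of -1.16 without P14 replicate 2, which still passed (adjusted p = 0.0322). The CSMN P14 arrays also differed in microglia markers, which averaged 8.89 on replicate 1 and 6.96 on replicate 2. The upper quartile over all probe sets was 8.19 on replicate 1 and 7.85 on replicate 2. The part of these differences in the values at P14 was not tested. The P3 level itself was not past the test against E18 (difference 0.65, 95% interval -0.17 to 1.47, limma adjusted p = 0.258).

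In CPN, Actl6a measured 10.75 and 10.76 at E18, 9.19 and 8.91 at P3, 8.78 and 9.03 at P6, then 8.49 and 8.08 at P14. Both E18 arrays lay above all later CPN arrays, and both P14 arrays lay below all earlier ones. P14 differed from E18 by -2.47 ± 0.42 (n = 2 arrays each), a 5.54-fold lower level (limma, adjusted p = 0.000613, with 8.98% of all genes lower). Markers of cortical progenitors moved with it, with 12 of 14 lower at P14 than at E18 in CPN and a median difference of -4.65, as did those of dividing cells, with 13 of 14 lower and a median of -2.29. The progenitor markers averaged 10.70 and 10.72 on the CPN arrays at E18, 7.92 and 7.84 at P3, 7.02 and 7.51 at P6, then 6.87 and 6.75 at P14, and their part in the CPN stage differences of Actl6a and of Ss18 was not tested. Most of the Actl6a difference lay before P3, at which Actl6a was lower than at E18, with a difference of -1.71 ± 0.42 (limma, adjusted p = 0.0199, with 4.22% of all genes lower). Without any 1 of the 4 CPN arrays at E18 and P3 the P3 difference was between -1.85 and -1.56 and no longer passed (adjusted p 0.0773 to 0.177).

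The actin-related subunit of neuronal complexes, Actl6b, had no such course. In CSMN it measured 10.05 and 8.98 at E18, 10.22, 9.86 and 9.49 at P3, 9.52 and 9.61 at P6, then 10.26 and 8.63 at P14, and all stages overlapped. The difference of P14 against E18 was -0.07 ± 0.48 (95% interval -1.09 to 0.95, limma adjusted p = 0.948), with its CSMN arrays 1.63 apart at P14 and 1.07 apart at E18. In CPN it measured 9.71 and 8.91 at E18, 10.02 and 9.64 at P3, 9.84 and 9.44 at P6, then 10.31 and 9.85 at P14, so the P14 arrays lay above the E18 arrays. There the difference of 0.77 ± 0.48 did not pass (95% interval -0.25 to 1.79, limma adjusted p = 0.337). Bulk arrays of sorted cells cannot separate fewer cells of a kind from less RNA per cell, here and in every result below.

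The RNA levels of this pair can be compared within each array as the log2 difference of Actl6b and Actl6a, set to 0 at the mean of CPN at E18. Those CPN arrays had the progenitor marker levels given above, and RNA does not measure subunits in complexes. The gap uses the brightest Actl6a probe set. At P14 against E18 the second Actl6a probe set changed less, by -0.73 in CSMN and -1.96 in CPN. In CTPN at P14 that gap was 4.52 and 3.49. In CSMN it was 3.57 and 1.85 at E18, 2.33, 2.52 and 2.35 at P3, 2.25 and 2.64 at P6, then 3.97 and 4.08 at P14. In CPN it was 0.40 and -0.40 at E18, 2.28 and 2.18 at P3, 2.51 and 1.86 at P6, then 3.26 and 3.22 at P14. CSMN at E18 thus overlapped CSMN at P3 and P6, whereas CPN at E18 had the smallest gaps of all arrays. At P14 the CSMN and CTPN arrays all lay above the CPN arrays. The change between P14 and E18 was 1.32 larger for Actl6b than for Actl6a in CSMN and 3.24 larger in CPN, with no test for the ratio itself. Between P14 replicates 1 and 2 of CSMN the gap differed far less than Actl6a alone, since both genes were lower on replicate 2.

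**Figure D2:**
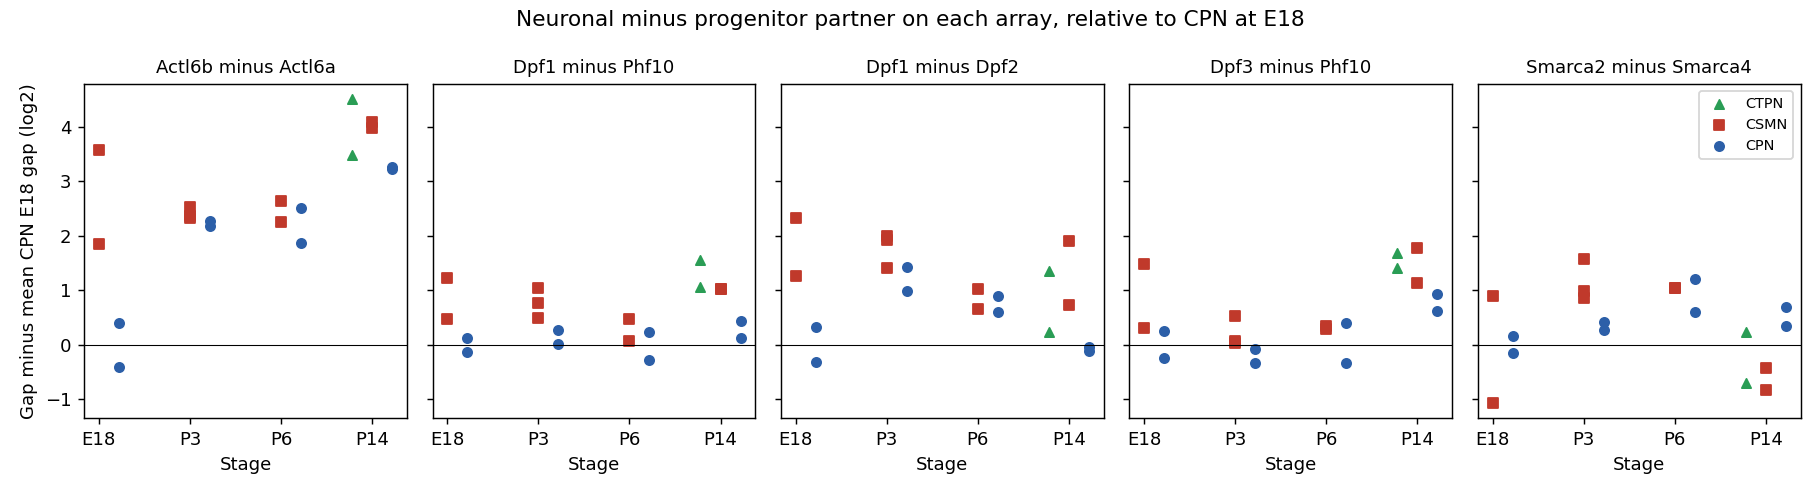
Within-array log2 difference of a neuronal-form or alternative subunit minus its counterpart, set to 0 at the mean of CPN at E18, for 5 pairs by stage and cell type; points are arrays. At E18 the Actl6b minus Actl6a gap lies at 3.57 and 1.85 in CSMN, against 0.40 and -0.40 in CPN.

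None of the 4 PHD finger genes passed in any of the 16 comparisons. Phf10, the progenitor form's BAF45a, measured 8.08 and 7.77 at P14 and 8.83 and 8.33 at E18 in CPN. Its P14 arrays lay below its E18 arrays, and the difference of -0.65 ± 0.30 did not pass (unadjusted 95% interval -1.29 to -0.01, limma adjusted p = 0.164). Its lowest values were the CTPN arrays, 7.34 and 7.13, and CSMN replicate 2 at P14, 7.30. Dpf2, a requiem-family subunit also found outside neurons, had the largest model SE of the members, 0.56 for 2 arrays against 2, and measured 9.27 and 7.57 in CSMN at P14 and 10.42 and 9.02 in CPN at E18. Its P14 against E18 differences were 0.20 in CSMN and -0.30 in CPN, and neither passed (limma adjusted p = 0.852 and 0.836).

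Dpf1, the neuronal BAF45b, was bright on all arrays, at 10.02 and 10.32 in CTPN, 9.87 to 11.11 in CSMN and 9.83 to 10.58 in CPN. In CSMN at P3 it measured 11.11, 10.56 and 10.70, and its difference of P14 against P3 there was -0.57 ± 0.27 (95% interval -1.14 to 0.01, limma adjusted p = 0.174). Its second probe set gave -0.53 in that comparison, which passed (limma, adjusted p = 0.0448). Dpf3, the neuronal BAF45c, had the narrowest range, from 8.24 on a CPN array at P3 to 9.30 on a CSMN array at E18. Its P14 against E18 differences were 0.10 in CSMN (95% interval -0.43 to 0.64) and 0.12 in CPN (95% interval -0.42 to 0.66). For Dpf1 the intervals were -0.91 to 0.35 in CSMN and -1.01 to 0.25 in CPN, so that for both genes a rise of 1 log2 unit lay outside them.

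Within arrays, the log2 difference of Dpf3 and Phf10, set to 0 at the mean of CPN at E18, was 1.69 and 1.41 in CTPN at P14. In CSMN it was 1.48 and 0.30 at E18, 0.03, 0.06 and 0.52 at P3, 0.35 and 0.28 at P6, then 1.14 and 1.77 at P14. In CPN it was -0.25 and 0.25 at E18, -0.09 and -0.35 at P3, -0.33 and 0.41 at P6, then 0.61 and 0.94 at P14. Both P14 arrays thus lay above every earlier CPN array, and in CSMN above every P3 and P6 array while overlapping the E18 arrays. The change of P14 against E18 was 0.56 larger for Dpf3 than for Phf10 in CSMN and 0.77 larger in CPN, with no test of the ratio itself. These gaps rest on the brightest Phf10 probe set. The second Phf10 probe set moved the other way at P14 against E18, by 0.71 in CSMN and 0.84 in CPN, neither past the test. The P14 against E18 change of Dpf1 minus that of Phf10 was 0.18 in CSMN and 0.27 in CPN. For Dpf1 minus Dpf2 it had the opposite sign, -0.48 in CSMN and -0.08 in CPN. At P14 against P3 the change of Dpf1 minus that of Dpf2 was -0.46 in CSMN and -1.28 in CPN.

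Ss18, whose protein is a dedicated BAF subunit that acts as a coactivator, passed the test between stages in CPN. In CSMN it measured 7.04 and 8.11 at E18, 8.53, 8.29 and 7.89 at P3, 7.89 and 7.99 at P6, then 7.76 and 7.64 at P14. No CSMN array reached the CPN level of E18, and P14 lay between the 2 E18 arrays (difference 0.12, 95% interval -0.53 to 0.77, limma adjusted p = 0.835).

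In CPN, Ss18 measured 9.46 and 10.07 at E18, 8.45 and 8.19 at P3, 7.99 and 8.02 at P6, then 8.03 and 7.96 at P14. The E18 arrays lay above every other array of the series. The P14 level was 3.41-fold lower than the E18 level (difference -1.77 ± 0.30, limma adjusted p = 0.000637), and P3 was already lower than E18 (difference -1.45 ± 0.30, limma adjusted p = 0.00705). The progenitor and dividing-cell markers given above were also lower at P14 in CPN. Without CPN E18 replicate 2 or CPN P3 replicate 2, the P3 difference was -1.14 and -1.32 and no longer passed (adjusted p = 0.0946 and 0.0939).

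The change between P14 and E18 differed between CSMN and CPN by 1.89 ± 0.43 for Ss18, the only member past the test of that interaction (limma, adjusted p = 0.0190, with 3.53% of all genes higher and 5.18% in either direction). The same interaction was past the test for 12 of 14 progenitor markers, with a median of 4.39, and for 10 of 14 dividing-cell markers, with a median of 2.36, all of them higher. It missed the threshold without CPN E18 replicate 2, CPN P14 replicate 1 or CPN P14 replicate 2, at 1.59, 1.92 and 1.85 (adjusted p = 0.0787, 0.0577 and 0.0800). For Actl6a the interaction was 1.09 ± 0.60 (limma, adjusted p = 0.346), and 1.96 without CSMN P14 replicate 2, which passed (adjusted p = 0.0102). The partner Ss18l1, which encodes CREST, had differences of -0.77 ± 0.39 in CSMN and -0.31 ± 0.39 in CPN at P14 against E18, neither past the test (limma adjusted p = 0.205 and 0.716). Its change minus that of Ss18 was -0.89 in CSMN and 1.46 in CPN, with no test of the ratio itself.

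**Figure D3:**
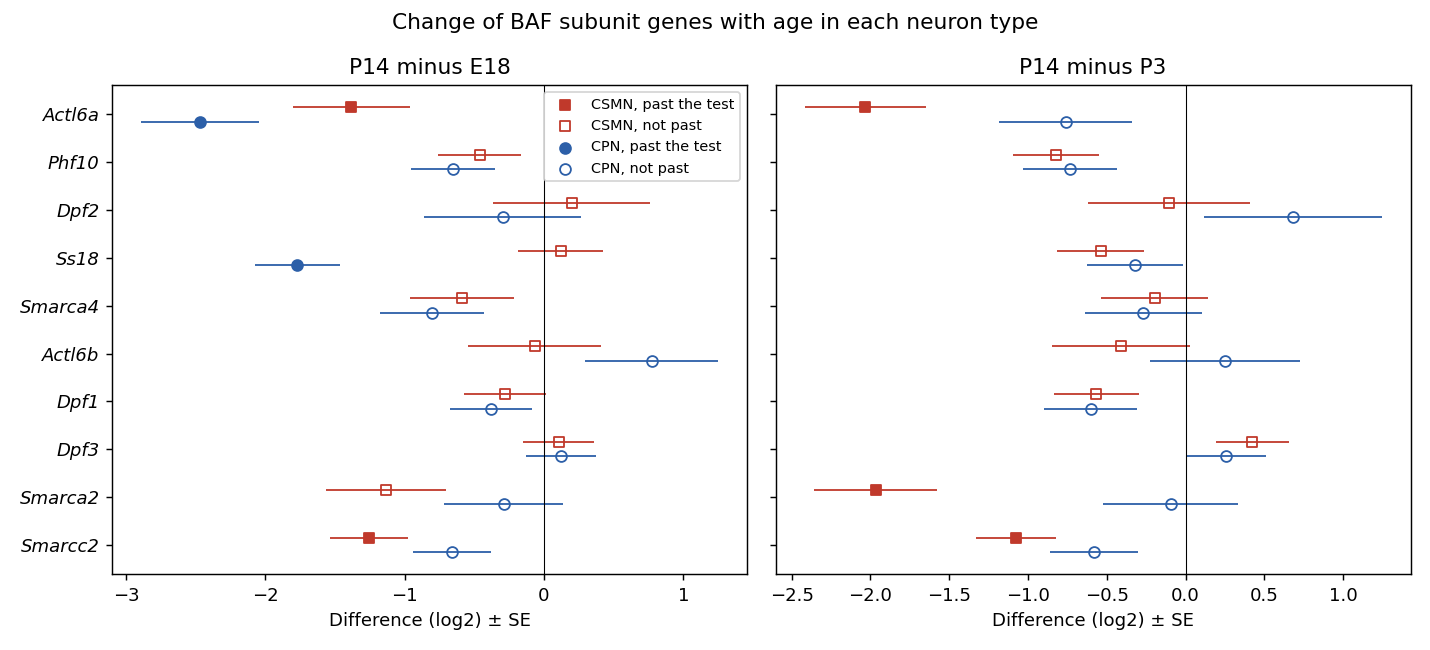
Log2 differences of P14 minus E18 (left) and P14 minus P3 (right) for each of the 10 BAF genes in CSMN (squares) and CPN (circles), with bars of 1 model SE; filled points passed the test. On the left, Actl6a (-1.38 in CSMN, -2.47 in CPN), Ss18 (-1.77 in CPN) and Smarcc2 (-1.26 in CSMN) are filled and lie below 0, and no point above 0 is filled in either panel.

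Of the ATPase genes, Smarca4 passed no test with its brightest probe set. It measured 11.12 and 10.72 in CTPN, 10.16 to 11.92 in CSMN and 10.76 to 11.92 in CPN. Its CPN arrays at E18, 11.92 and 11.52, lay above all later CPN arrays, and the P14 against E18 difference of -0.80 ± 0.37 did not pass (95% interval -1.60 to -0.01, limma adjusted p = 0.170). Its other probe set gave -1.46 in that comparison and did pass (limma, adjusted p = 0.0185).

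Smarca2 measured 8.72 and 9.59 at E18, 10.19, 9.87 and 9.91 at P3, 9.65 and 9.71 at P6, then 8.84 and 7.21 at P14 in CSMN. Its 3 CSMN arrays at P3 were above all other CSMN arrays, and P14 was lower than P3 (difference -1.97 ± 0.39, limma adjusted p = 0.00462). Without P14 replicate 2 the difference was -1.15 (adjusted p = 0.0596), and a second probe set of the gene gave -0.04. In CPN it measured 9.64 and 9.56 at E18, 9.57 and 9.25 at P3, 9.93 and 9.36 at P6, then 9.64 and 8.98 at P14, with all stages overlapping. The P14 against E18 change of Smarca2 minus that of Smarca4 was -0.55 in CSMN and 0.51 in CPN, with no test of the ratio itself.

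Smarcc2, the scaffold subunit BAF170, was lower late in CSMN. It measured 9.85 and 9.76 at E18, 9.66, 9.68 and 9.54 at P3, 9.16 and 9.61 at P6, then 9.03 and 8.07 at P14 in CSMN, and both P14 arrays were below every earlier CSMN array. P14 was 2.39-fold lower than E18 (difference -1.26 ± 0.28, limma adjusted p = 0.00732) and lower than P3 (difference -1.08 ± 0.25, limma adjusted p = 0.0130). Without CSMN P14 replicate 2 these were -0.78 (adjusted p = 0.0388) and -0.60 (adjusted p = 0.178). In CPN, Smarcc2 measured 9.44 and 8.98 at P14 and 9.83 and 9.91 at E18, a difference of -0.66 ± 0.28 that did not pass (95% interval -1.26 to -0.06, limma adjusted p = 0.127). Its relative Smarcc1, which encodes BAF155, had differences of -0.67 ± 0.28 in CSMN (limma adjusted p = 0.127) and -0.89 ± 0.28 in CPN, where it fell (limma, adjusted p = 0.0370).

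Stage by stage, the calls lay between E18 and P3 and between P6 and P14. Between P3 and E18 none passed in CSMN, against 10.4% of all genes, and 2 had an unadjusted limma p under 0.05. In CPN, 2 of 10 members were lower, where 8.08% of all genes passed in either direction. Between P6 and P3, in the mean of both types, none passed and 1 had an unadjusted p under 0.05, with 0.066% of all genes past the test. Between P14 and P6, also in the mean of both types, 3 of 10 were lower, with 7.36% of all genes lower and 12.9% in either direction. These were Actl6a (-1.16 ± 0.30, limma adjusted p = 0.0182), Smarca2 (-0.99 ± 0.30, adjusted p = 0.0429) and Smarcc2 (-0.70 ± 0.20, adjusted p = 0.0305). Leaving out 1 array ended the call in 3, 13 and 4 of 19 settings, with adjusted p up to 0.0759 for Actl6a, 0.168 for Smarca2 and 0.145 for Smarcc2. Without CSMN P14 replicate 2, Smarca2 gave -0.59 and Smarcc2 -0.46, and with its second probe set Smarca2 gave 0.0594. Between P14 and P3, 3 of 10 were lower in CSMN, namely Actl6a, Smarca2 and Smarcc2, with 8.16% of all genes lower and 12.6% in either direction. Without CSMN P14 replicate 2 only Actl6a of these passed. With arrays weighted by quality, or with only the groups compared in the fit, no member passed in CSMN at P14 against E18 or P3. Between P14 and P3 no member passed in CPN, where 1 had an unadjusted limma p under 0.05 and 8.13% of all genes passed.

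The median difference of the 10 members at P14 against E18 was -0.37 in CSMN and -0.52 in CPN, against -0.00 and 0.03 over all genes. The CSMN median was 0.01 without P14 replicate 2 and -0.80 without P14 replicate 1. The members' calls numbered 2 of 10 in each type, close to the share of all genes that passed in those comparisons. The medians compare sets unlike in brightness, since by mean level the members lay at percentiles 61.5 to 95.6 of all genes.

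The types differed in these genes at E18. Actl6a measured 7.93 and 8.58 in CSMN, against 10.75 and 10.76 in CPN, and Ss18 measured 7.04 and 8.11 in CSMN, against 9.46 and 10.07 in CPN. Neither pair of groups overlapped, and the CPN arrays are the same that entered the comparison of stages in CPN. The difference was -2.51 ± 0.42 for Actl6a, 5.68-fold lower in CSMN (limma, adjusted p = 0.00113), and -2.19 ± 0.30 for Ss18, 4.55-fold lower in CSMN (limma, adjusted p = 0.000201). They were 2 of 10 members past the test, with 8.94% of all genes lower and 12.9% in either direction. Dpf2 measured 9.0 and 7.44 in CSMN against 10.42 and 9.02 in CPN, groups that all but met, and its difference of -1.50 ± 0.56 did not pass (limma adjusted p = 0.0936). The median difference at E18 was -0.40 over the members, against 0.10 over all genes, sets unlike in brightness as given above.

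After birth no member passed between CSMN and CPN in any 1 stage, with 0.874% of all genes past the test at P3, 1.07% for P6 and 1.39% for P14. At an unadjusted limma p under 0.05 there were 0 members on P3 arrays, 0 on P6 arrays and 3 on P14 arrays. At P14, Actl6a measured 7.74 and 6.00 in CSMN, against 8.49 and 8.08 in CPN (difference -1.42, 95% interval -2.32 to -0.52, limma adjusted p = 0.151). That Actl6a difference was -2.29 without CSMN P14 replicate 1 and -0.55 without CSMN P14 replicate 2. Either setting leaves 1 CSMN array at P14. Over the mean of 4 stages, Actl6a (-1.10 ± 0.21, limma adjusted p = 0.00303) and Ss18 (-0.66 ± 0.15, adjusted p = 0.0113) were lower in CSMN, with 5.34% of all genes lower and 8.29% in either direction. Over the 3 postnatal stages alone these were -0.63 (limma adjusted p = 0.201) and -0.15 (adjusted p = 0.771), and no member passed.

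The E18 groups also differed in markers of other cells. Markers of cortical progenitors averaged 6.70 and 6.80 in CSMN at E18, against 10.70 and 10.72 in CPN at E18, and 6.45 to 7.92 on the 17 arrays outside the CPN E18 group. Of 14 measured among 15 progenitor markers, 12 were lower in CSMN at E18, with a median difference of -4.49. The 3 largest differences were those of Fabp7 (-8.35), Sox2 (-7.22) and Neurog2 (-5.91). Not all were raised in CPN. Over all stages, Pax6 measured 6.18 to 6.56 in CPN and 6.23 to 7.70 in CSMN. Nes measured 8.05 to 8.87 in CPN and 7.98 to 9.36 in CSMN. Of the 14 progenitor markers, 6 and 6 lay above the array median in CSMN at E18, and 13 and 14 in CPN at E18. Markers of dividing cells averaged 7.0 and 7.01 in CSMN at E18, against 9.59 and 9.78 in CPN, and 13 of 14 were lower in CSMN. Microglia markers averaged 6.77 and 6.90 in CSMN at E18, against 7.64 and 8.81 in CPN. Lower in CSMN at E18 were also 3 of 8 microglia, 4 of 8 astrocyte, 1 of 9 oligodendrocyte and 4 of 10 interneuron markers, and 3 of 10 mature neuron markers were higher. The part of these cells in the Actl6a and Ss18 differences was not tested. Within CSMN the progenitor markers averaged 6.80 and 6.70 at E18, 7.29, 7.0 and 7.57 at P3, 7.57 and 7.65 at P6, then 6.61 and 6.75 at P14.

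**Figure D4:**
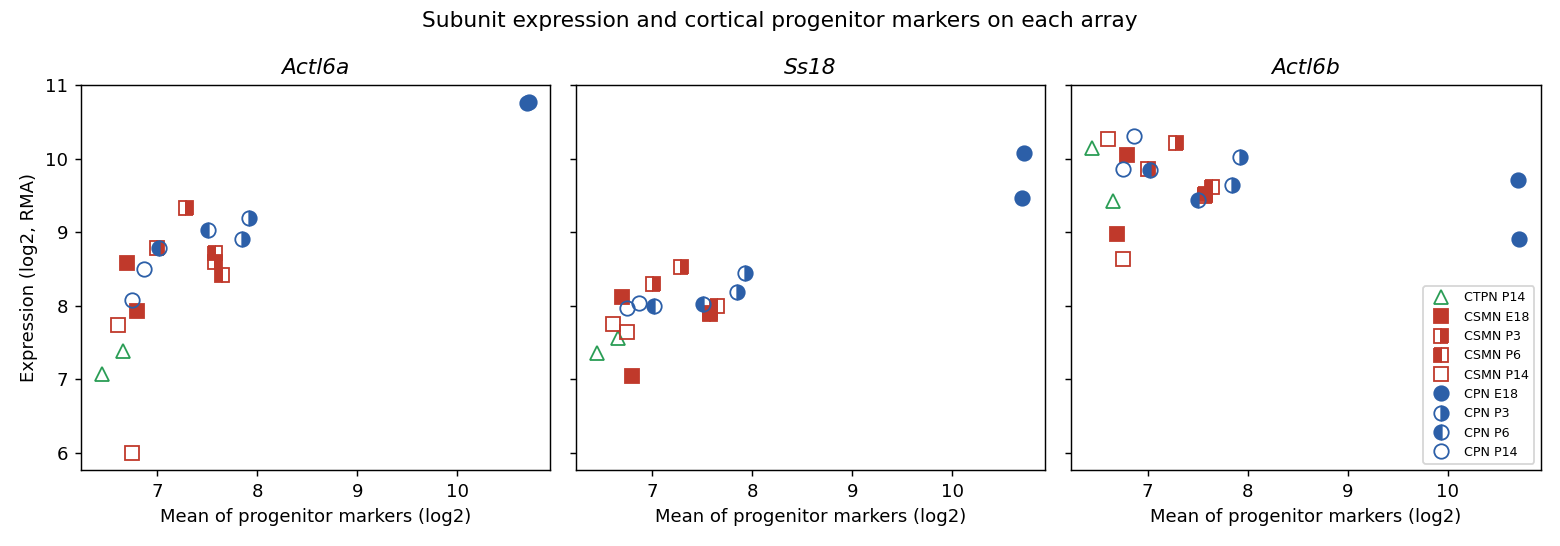
Log2 levels of Actl6a, Ss18 and Actl6b on each array (vertical) against the mean log2 level of the progenitor markers on that array, with cell type by colour and stage by filling. The CPN arrays at E18 stand apart on both axes for Actl6a and Ss18, and on the horizontal axis alone for Actl6b, with progenitor means of 10.70 and 10.72 against 6.45 to 7.92 on all other arrays.

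In CTPN at P14 no member passed against either other type. Actl6a measured 7.08 and 7.39 in CTPN, between the CSMN arrays of 7.74 and 6.00 and below the CPN arrays of 8.49 and 8.08. Smarcc2 measured 9.47 and 9.54 in CTPN, above 9.03 and 8.07 in CSMN and 9.44 and 8.98 in CPN. Its difference from CSMN was 0.96 ± 0.28 (95% interval 0.36 to 1.55, limma adjusted p = 0.329). Against CSMN, 0 of 10 members passed and 1 had an unadjusted limma p under 0.05, with 0.192% of all genes past the test. Against CPN, 0 of 10 passed and 2 had an unadjusted limma p under 0.05, with 1.06% of all genes past. Those 2, Actl6a (-1.05, 95% interval -1.96 to -0.15) and Phf10 (-0.69, 95% interval -1.33 to -0.05), are genes of the progenitor form, with limma adjusted p of 0.538 and 0.632. The CTPN against CSMN differences depended on which CSMN P14 array was kept. Without replicate 1 they were 1.23 for Actl6a, 1.35 for Smarca2 and 1.44 for Smarcc2. Without replicate 2 they were -0.51, -0.28 and 0.47. Either setting leaves 1 CSMN array at P14.

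Ordered by group mean, Actl6a stood at 10.76 in CPN at E18, 9.05 in CPN at P3, 8.91 in CPN at P6, 8.90 in CSMN at P3, 8.57 in CSMN at P6, 8.29 in CPN at P14, 8.25 in CSMN at E18, 7.23 in CTPN at P14 and 6.87 in CSMN at P14. Only the first and the seventh of these groups had no array in common range with the next lower group. For Actl6b, Dpf3, Smarca4 and Smarcc2 every neighbouring pair of groups overlapped. Over the 9 group means Actl6a correlated at Pearson's r of 0.90 with Ss18 and 0.85 with Phf10, and at -0.23 with Actl6b and -0.69 with Dpf3. The mean of the 2 CPN arrays at E18 is 1 of these 9 points, and the values describe these means alone.

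The separate probe sets of a gene did not all move alike. The brightest Actl6a probe set is of a kind that may hybridise to other transcripts, and the second gave -1.97 in CSMN against CPN at E18 and -1.96 in CPN at P14 against E18, both past the test (limma, adjusted p = 0.000657 and 0.000366). In CSMN it gave -0.73 at P14 against E18, which did not pass (adjusted p = 0.132). Of the Ss18 probe sets, the second gave -0.28 in CSMN against CPN at E18 and -0.14 in CPN at P14 against E18 (adjusted p = 0.379 and 0.777), with a mean level of 5.51, below every array median. The other gave -0.64 and -0.71, with a mean level of 4.86. The Ss18 calls therefore rest on 1 probe set. For Phf10 the second probe set had the opposite sign, 0.84 in place of -0.65 at P14 against E18 in CPN, and neither passed (second: limma adjusted p = 0.422). Actl6b and Smarcc2 have 1 probe set each.

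**Figure D5:**
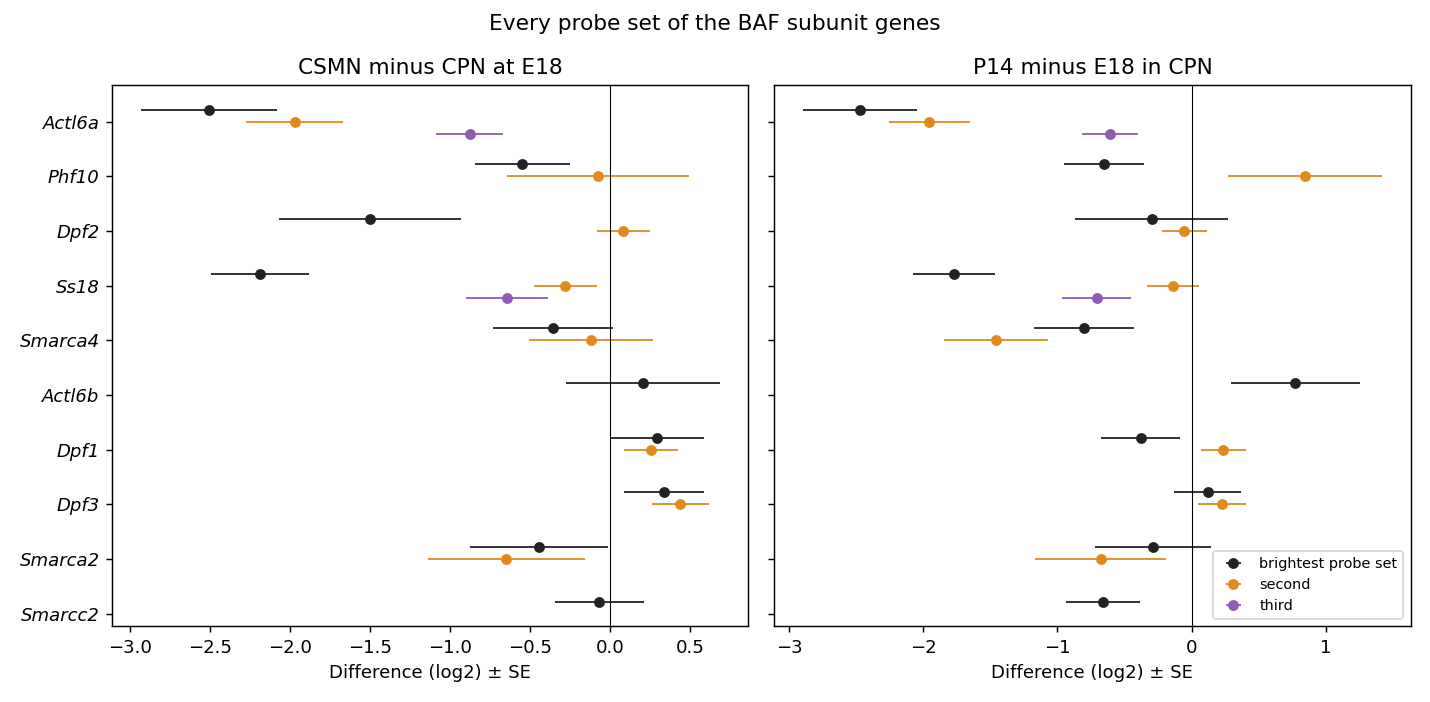
Log2 differences of CSMN minus CPN at E18 (left) and of P14 minus E18 in CPN (right) for each of the 20 probe sets of the 10 BAF genes, with bars of 1 model SE and the rank of brightness by colour. On the right the 3 Actl6a probe sets lie at -2.47, -1.96 and -0.61, the 3 Ss18 probe sets at -1.77, -0.14 and -0.71.

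The other subunits of BAF and the related PBAF complexes that passed at P14 against E18 or P3 were lower at P14. Of 21 genes, 4 were lower and 0 higher at P14 than at E18 in CSMN, where 5.85% of all genes were lower, and 7 lower and 0 higher in CPN, where 8.98% were. The list medians were -0.67 and -0.70. The 21 genes averaged 9.31 and 8.59 on the CSMN P14 arrays, against 9.50 and 9.56 at E18, and 9.20 and 9.10 on the CPN P14 arrays, against 9.74 and 9.84 at E18. The CSMN count rested on P14 replicate 2. Without that array 0 of the 21 were lower and 1 was higher in CSMN, Bcl7b (1.65, limma adjusted p = 0.0286), with a list median of -0.24, and without replicate 1, 12 were lower, with 13.1% of all genes lower. With all arrays, the 4 in CSMN were Pbrm1, the bromodomain subunit of PBAF (-1.44), Arid1a, an ARID subunit of BAF (-1.39), Bicra (-1.13) and Bcl7c (-0.79), with limma adjusted p from 0.0118 to 0.0248. In CPN, Pbrm1 (-2.31), Bcl11b (-1.91), Smarce1 (-1.20), Arid2 (-1.18), Bcl7c (-1.10), Bicra (-0.97) and Smarcc1 (-0.89) were lower, with limma adjusted p from 0.000213 to 0.0370. Bcl11b is also a transcription factor of subcerebral neurons, and it was 1.97 higher in CSMN than in CPN at E18. Between P14 and P3, 10 of the 21 were lower in CSMN, among them Ss18l1 (-1.26, limma adjusted p = 0.0308), with 8.16% of all genes lower, and 5 in CPN, with 3.45% of all genes lower. Without CSMN P14 replicate 2 the CSMN count was 3, namely Pbrm1, Bcl7c and Bicra, with 2.58% of all genes lower, and without replicate 1 it was 15, with 22.7% lower. Between P3 and E18 the only one past the test in either type was Bcl7c, which was higher at P3 (0.70 in CSMN and 0.75 in CPN, limma adjusted p = 0.0413 and 0.0499).

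REST is a repressor that silences neuronal genes in progenitors, and its complex represses microRNAs that in turn limit BAF53a. Of 11 genes for REST, its corepressors and associated phosphatases, 1 was lower at P14 than at E18 in CSMN and 7 in CPN. Of all genes, 5.85% were lower in CSMN and 8.98% in CPN. The 11 genes averaged 8.45 and 8.04 on the CSMN P14 arrays, against 8.60 and 8.45 at E18. Rest itself had a difference of -0.23 ± 0.24 in CSMN (limma adjusted p = 0.571) and fell in CPN by 0.76 ± 0.24 on the log2 scale (limma, adjusted p = 0.0345). It was dim, at 5.94 to 6.93 on the CPN arrays, around the array medians of 6.42 to 6.62. Kdm1a, a histone demethylase, fell in both types (-1.54 in CSMN and -1.15 in CPN, limma adjusted p = 0.00991 and 0.0357). Hdac1 (-1.26) and the phosphatase gene Ctdsp2 (-1.88) were lower in CPN (limma, adjusted p = 0.000171 and 3.11e-05). At E18, Ctdsp2 (-1.95) and Hdac1 (-1.38) were lower in CSMN than in CPN. These comparisons use the same E18 CPN arrays as the Actl6a result, with the progenitor marker levels given above, and the part of those cells was not tested.

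Among 7449 genes whose group means ranged over at least 1 log2 unit, those most like Actl6a over the 9 groups were Lamp2 (Pearson's r = 0.995), Brd1 (0.991), Btbd7 (0.989) and Faap20 (0.987). For Actl6b, among 7450 genes, they were Tmem141 (0.859), Nenf (0.857), Gpr26 (0.855) and Ppm1h (0.853). For Dpf1 they were Grrp1 (0.886), Lrrc20 (0.866), Pabpc4 (0.865) and Xrn2 (0.864). Likeness over 9 means describes these arrays, and Actl6b and Dpf1, whose means vary little, had weaker matches than Actl6a.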

How the data were processed

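RNA of 9 groups was hybridised to Affymetrix mouse whole-genome arrays after 2 rounds of linear amplification, per the labels' protocols. Each deposited value is the log2 level of 1 probe set, made by the authors with RMA, per the submitters' processing notes, with no version given. The values were used as deposited. RMA draws the probe intensities of arrays towards a common distribution, so shifts of total RNA are not seen. The deposited arrays still differed in upper quartile, from 7.85 to 8.26. The lowest was CSMN P14 replicate 2, which also had the highest median (6.62). Its mean correlation with the other arrays, 0.884, was the lowest of all. The CSMN E18 arrays came next in upper quartile, at 7.93 and 7.87. The part of this in the CSMN differences was not tested. Precision is limited by how many arrays a group has. Of 45101 probe sets, 34945 carry 1 symbol, and the brightest by mean represented each of 18193 genes. There are no detection calls, and folds are given where all arrays compared lay above 6.62, the highest array median.

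A limma (3.58.1, R 4.3.3) fit took 9 group means from the 19 arrays together. Tests were two-sided and moderated, and p-values were adjusted by Benjamini and Hochberg over 18193 genes and called under 0.05. The 16 comparisons are CSMN against CPN, pairs of stages within types or in their mean, the interaction, and CTPN against each type. Errors are model SEs. The model was tested on simulated data. Of 11 gene lists, 121 of 125 genes were measured. All members are named, from other lists the largest changes past the test, and as likest genes the 4 of highest correlation. Members and lists were chosen with earlier results of these data known. In all, 29 other settings changed normalization, filter, probe set, spread model, replicate block or left out 1 array. Promoters are from RefSeq.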

Additional observations from a re-analysis of the deposited data

Results flagged for a closer look

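The change of Ss18 between P14 and E18 differed between the cell types, by 1.89 in CSMN relative to CPN on the log2 scale, in a test of the difference itself (limma interaction, adjusted p = 0.0190). Ss18 measured 7.76 and 7.64 at P14 and 7.04 and 8.11 at E18 in CSMN, against 8.03 and 7.96 at P14 and 9.46 and 10.07 at E18 in CPN. A second, dimmer probe set of the gene gave 0.29 (limma, adjusted p = 0.633). The call was lost in 7 of the 29 alternatives (adjusted p up to 0.639). The same interaction was past the test for 12 of 14 progenitor markers (median 4.39) and 10 of 14 dividing-cell markers (median 2.36), comparisons that use the same CPN arrays at E18, and their part in the Ss18 value was not tested.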

How the results depend on the processing

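Of 160 member results, 17 passed the test, and 2 of these did so under every alternative, both for Actl6a. They are P14 against E18 in CPN (-2.67 to -1.68) and CSMN against CPN at E18 (-2.83 to -1.78). Actl6a over the mean of 4 stages passed under the 29 alternatives and failed over the 3 postnatal stages alone, a setting chosen after seeing the data. Another 35 member results passed under at least 1 alternative only. The sign turned in Smarca2 at P14 against P6, to 0.0594, with the second brightest probe set and without probe sets marked x, s or a.

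Counts of called members changed as follows. Quantile and cyclic loess normalization gave 4 at P14 against E18 in CPN in place of 2, and quantile normalization 1 at P3 against E18 in CSMN in place of 0. Without probe sets marked x, s or a the count was 1 at P14 against E18 in both types, at P3 against E18 in CPN, at P14 against P6, over the mean of 4 stages and at E18, and 0 for the interaction. With the second brightest probe set it was 0 at P14 against E18 in CSMN, for the interaction and at P14 against P6, and 1 at P3 against E18 in CPN, over the mean of 4 stages and at E18. The mean of all probe sets gave 1 at P14 against E18 in CSMN. Array weights, and equally a fit of the groups compared only, gave 0 at P14 against E18 in CSMN, for the interaction and at P14 against P3 in CSMN, and 5 at P14 against P3 in CPN. Of those 5, Actl6a, Dpf1, Phf10 and Smarcc2 were lower at P14. Dpf2, of the progenitor form, was higher there by 0.68 (limma, adjusted p = 0.0346 with weights and 0.00486 with only the groups compared). At P14 against P6 weights gave 1 and the smaller fit 0, and weights gave 1 for CSMN against CPN at P3 and for CTPN against CPN. The mean of 3 postnatal stages gave 0.

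Leaving out 1 array gave 2 to 3 called members at P14 against E18 in CPN, 1 to 4 in CSMN, 0 to 3 for the interaction, 1 to 6 at P14 against P3 in CSMN, 0 to 2 at P3 against E18 in CPN, 0 to 1 in CSMN, 0 to 4 at P14 against P6, 2 to 6 over the mean of 4 stages, 2 to 3 at E18, 0 to 5 for CSMN against CPN at P14, 0 to 3 for CTPN against CSMN, and 0 to 0 elsewhere. Where this left 1 array in a group, it was assumed to vary like the other groups. The highest counts at P14 came without CSMN P14 replicate 1. The counts of other BAF genes without each CSMN P14 array, given above, were chosen after seeing the data. Whether replicate numbers paired the arrays was not settled, since the r values of 36 pairs ran from -0.22 to 0.59. Their median was 0.08, and 13 lay below 0. In their deviations, 12 arrays correlated best with an array of their own replicate number. With the replicate block the counts were 4 at P14 against P3 in CSMN, 4 at P14 against P6 and 3 at E18, and as before elsewhere.

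Over all genes, the number past the test, with its range over the alternatives, was 3484 for P14 against E18 in CPN (2137 to 5604), 2751 for P14 against E18 in CSMN (259 to 4970), 943 for interaction of type and P14 against E18 (152 to 3597), 1480 for P14 against P3 in CPN (536 to 5436), 2295 for P14 against P3 in CSMN (178 to 8107), 1470 for P3 against E18 in CPN (576 to 2350), 1890 for P3 against E18 in CSMN (621 to 4815), 12 for P6 against P3 mean of both types (2 to 389), 2342 for P14 against P6 mean of both types (1046 to 7318), 1509 for CSMN against CPN mean of 4 stages (747 to 5262), 2350 for CSMN against CPN at E18 (843 to 4253), 159 for CSMN against CPN at P3 (29 to 3176), 195 for CSMN against CPN at P6 (53 to 875), 253 for CSMN against CPN at P14 (0 to 6256), 35 for CTPN against CSMN at P14 (0 to 5143) and 193 for CTPN against CPN at P14 (51 to 588). Among calls over all genes, 51.4% were higher under quantile normalization, against 61.3% as deposited, for P14 against E18 in CSMN, 53.6% against 68.2% for the interaction, 46.3% against 35.3% for P14 against P3 in CSMN, 58.5% against 76.3% for P3 against E18 in CSMN, 81.2% against 91.7% for P6 against P3 and 45.8% against 30.8% for CSMN against CPN at E18. Under cyclic loess it was 54.2% for P14 against P3 in CSMN, 46.2% against 57.2% for the types at P3, 44.2% against 32.0% at P14 and 55.8% against 71.4% for CTPN against CSMN. The causes were not tested. The 2 arrays in most groups limit what can be told apart.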
